A study of Equus caballus with 4 samples.

Results

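The mitosis and chromosome segregation genes were a list of 54 gene names that work from the entry into mitosis to the separation of the daughter cells. All gene probes of the Agilent horse array whose gene name was exactly one of these names were taken. Of the 54 names, 45 had at least 1 probe, with 71 probes in all of the 43603 gene probes on the array. The 9 other names (ASPM, CDC20, CDCA5, DLGAP5, KIF23, KIF4A, PLK1, PLK4 and TOP2A) had no probe under that symbol and were not analysed here. Of the 71 probes, 70 probes of 44 genes were among the 24230 probes that lay well above background on all 4 arrays in at least 1 channel, and only these were tested. The probe of CCNF, a cyclin-related ubiquitin ligase subunit, did not pass this filter.

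The cells were equine satellite cells (ESC) from m. semitendinosus, the muscle precursor cells that fuse into fibres, at day 3 of differentiation. The treated ESC had 24 h with 0.125 µM gamma-oryzanol (GO), ferulic acid esters found in rice bran, of which the final 1 h was in the presence of 3 mM hydrogen peroxide (H2O2). GO was left out of the control cultures. Exposure of the controls to H2O2 is not given in the labels, whereas the methods of the study describe it. Labels call the 4 pairs biological replicates, but the methods describe muscle from several young stallions from which 1 primary cell line was selected, so that the replicates may be cultures from 1 animal and the p-values then measure the spread between cultures. On each of the 4 arrays, which were on 1 slide, the red channel (Cy5) carried the treated RNA and the green one (Cy3) that of the control. No dyes were swapped, so that dye and treatment cannot be told apart in any ratio below.

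A dividing cell condenses its chromosomes, attaches them through kinetochores to a spindle of microtubules, holds the sister chromatids together until the spindle checkpoint is satisfied, and then separates them and divides. Cyclin B with the kinase CDK1 starts this programme, and the anaphase-promoting complex ends it by marking cyclin B and securin for destruction. Many of these genes are transcribed mainly in G2 and mitosis, so that their transcripts are abundant in a culture with many dividing cells. Satellite cells divide as myoblasts and leave the cell cycle when they differentiate into myotubes.

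The main values are log2 ratios of red over green, so that a negative value means a lower signal with GO and H2O2 than in the control on the same array. Probes of 60 bases gave them, and 10 of these probes are printed here in lower case from the array files, with the positions that the files give on build EquCab1. Whether a probe lies in coding sequence was not assigned, since no genome of that build was used, and some probes span more than their own length on it. The first and last of the 5 probes of UBE2C, the ubiquitin-conjugating enzyme of the anaphase-promoting complex, are shown because they share all but the outermost bases and so measure the same stretch (chr22:34838647-34839188 and chr22:34838651-34839192, plus strand). Capitals mark the 56 bases that both hold.
UBE2C, first probe: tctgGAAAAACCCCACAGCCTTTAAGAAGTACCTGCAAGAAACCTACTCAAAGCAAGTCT
UBE2C, last probe: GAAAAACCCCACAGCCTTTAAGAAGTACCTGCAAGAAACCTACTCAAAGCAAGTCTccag
The 2 probes of MAD2L1, a spindle checkpoint protein, are shown because the brighter one passed the test and the other did not (chr2:93240917-93240976 and chr2:93240957-93241016, plus strand). Capitals mark the 20 bases that they share.
MAD2L1, brighter probe: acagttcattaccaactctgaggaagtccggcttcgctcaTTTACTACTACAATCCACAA
MAD2L1, dimmer probe: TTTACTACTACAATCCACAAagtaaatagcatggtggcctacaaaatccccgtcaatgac
The 2 probes of ECT2, which activates RhoA at cytokinesis, are shown because they disagreed on 1 array (chr19:8942808-8945575 and chr19:8945585-8945644, plus strand). They share no stretch, so that none is in capitals.
ECT2, brighter probe: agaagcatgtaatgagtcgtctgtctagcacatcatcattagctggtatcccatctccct
ECT2, dimmer probe: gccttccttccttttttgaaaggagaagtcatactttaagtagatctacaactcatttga
The brightest probes of CCNB1 and CDK1, the pair that drives entry into mitosis, are shown beside those of KIF18A and PRC1, a kinesin and a midzone protein that passed the test (chr21:761282-761512, minus strand; chr1:49550596-49553167, plus strand; chr7:82161020-82161079, minus strand; chr1:90338853-90340487, minus strand).
CCNB1: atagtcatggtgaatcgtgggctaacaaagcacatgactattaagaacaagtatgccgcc
CDK1: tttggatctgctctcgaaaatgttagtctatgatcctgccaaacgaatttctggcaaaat
KIF18A: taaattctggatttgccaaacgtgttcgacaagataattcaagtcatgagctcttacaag
PRC1: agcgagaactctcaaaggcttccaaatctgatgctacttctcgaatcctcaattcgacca

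In the test over all 4 arrays, 5 of the 70 probes were lower with GO and H2O2 (7.14%) and none was higher, at a limma adjusted p under 0.05. Over all 24230 tested probes, 7.59% were lower and 9.49% were higher, so that the share of mitosis probes called was near that of the array. At an unadjusted p under 0.05, 19 of the 70 were lower and 0 higher. The share of all probes at that threshold was not counted, so that these 2 counts have no background. Of the 70 probes, 66 had a negative mean ratio. By the brightest probe, 42 of the 44 genes had one, against 6500 of the 13692 gene names tested. Taking the brightest probe of each gene, the median log2 ratio of the 44 genes was -0.24, against 0.0088 over the 13692 gene names tested.

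The arrays differed. The median log2 ratio of the 44 genes was -0.26 on replicate 1, 0.28 on replicate 2, -0.56 on replicate 3 and -0.50 on replicate 4, while that of all genes stayed between -0.0038 and 0.0109. On replicate 2, 39 of the 44 genes had a positive ratio, against 3, 1 and 0 genes on replicates 1, 3 and 4. For 43 of 44 genes (97.7%) replicate 2 gave the highest of the 4 ratios, against 27.2% of all genes. Of the 44, 35 genes (79.5%) were positive on replicate 2 and negative on the other three arrays, a pattern shown by 7.14% of all genes. These counts describe the arrays and are not a test, since replicate 2 was already known to stand apart in these data.

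**Figure D1:**
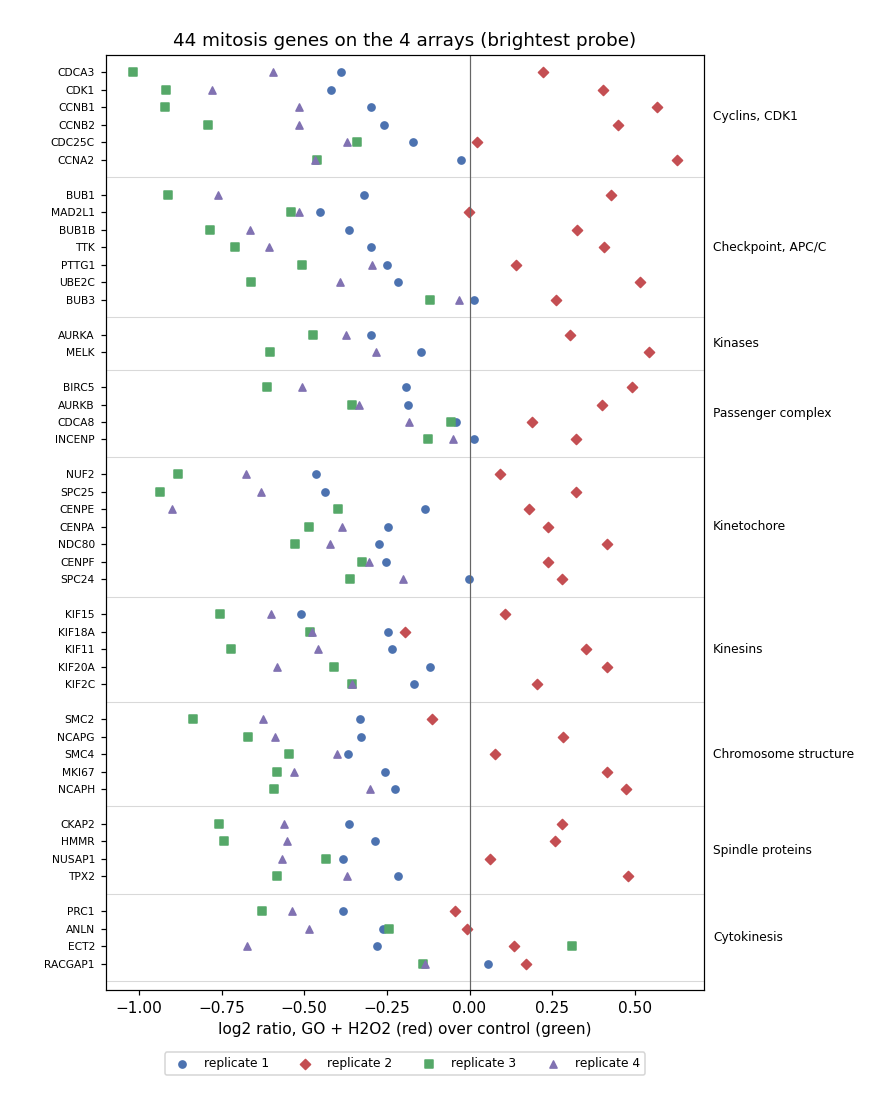
Log2 ratio of red (GO and H2O2) over green (control) on each of the 4 arrays for the brightest probe of the 44 genes, grouped by role; each point is 1 array. Replicate 2 (diamonds) lies to the right of the other arrays in 43 of 44 genes, and replicate 3 (squares) is lowest in 36.

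The spread over arrays was therefore large beside the mean. The median SD over the 4 arrays was 0.43 for the 44 genes and 0.093 for all genes, and 37 of the 44 lay above the 90th percentile of all genes (an SD of 0.21). Without replicate 2, the median was -0.43 and 58 of the 70 probes (82.9%) were lower and 0 higher, against 7.51% lower and 8.58% higher among all probes. This array was left out because of its values in these same data, so that the count shows how much 1 array decides and gives no independent evidence of a direction. Leaving out replicate 1, 3 or 4 instead left 0 of the 70 probes past the threshold, while the probes called over the whole array fell to 2, 38 and 0. In these fits 12, 10 and 8 of the 70 were lower at an unadjusted p under 0.05, a threshold at which all probes were not counted. With the kind of test that the study names (the methods' t-test), 0 of the 70 passed after adjustment. After adjustment this test called few probes over the whole array as well, so that the 0 is not particular to these genes. At an unadjusted p under 0.05, 1 of the 70 was lower, with no count over all probes. The test was run on the ratios of this report and not on the study's own processing.

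**Figure D2:**
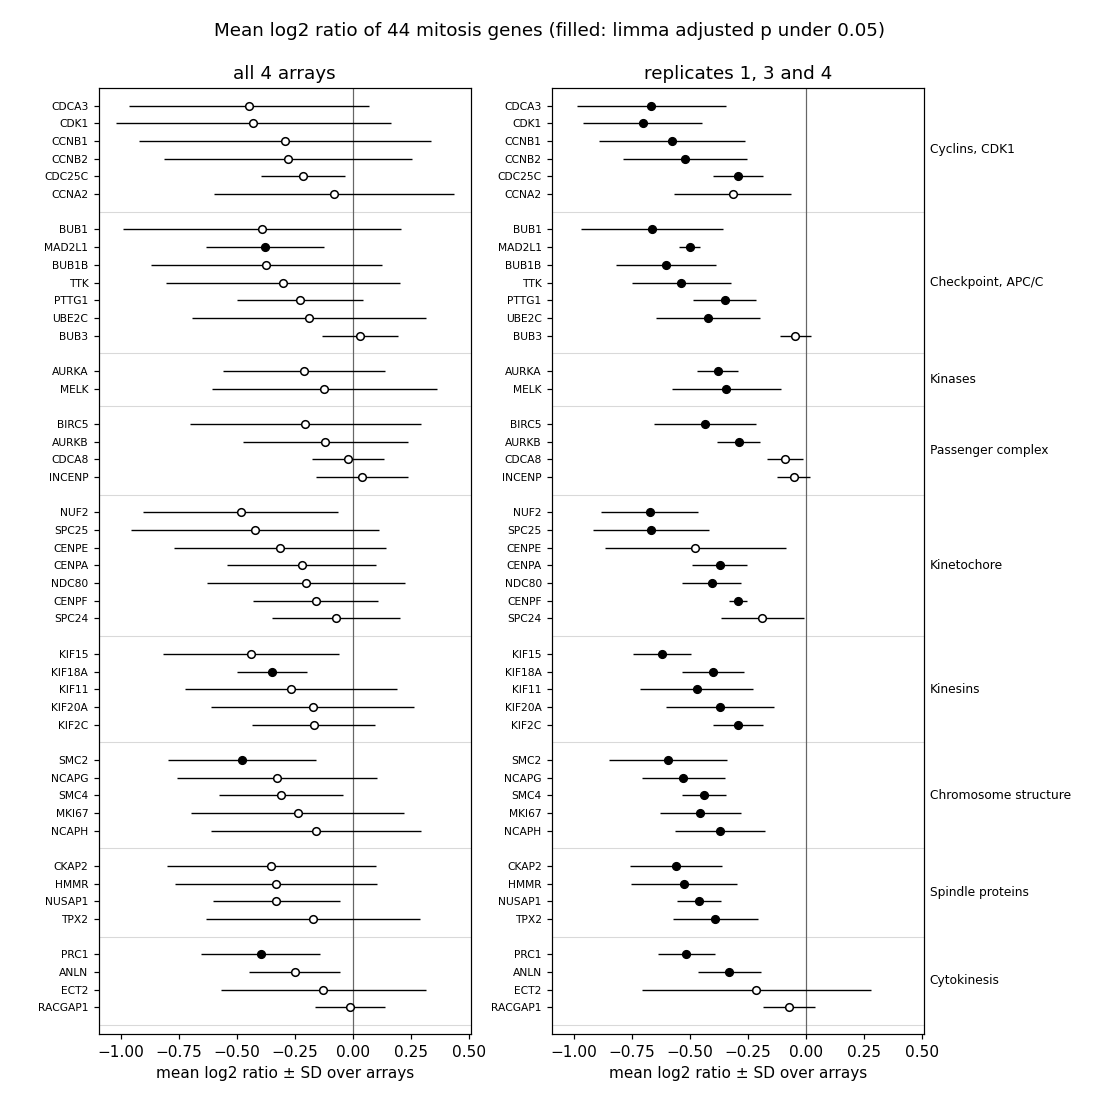
Mean log2 ratio of red over green with SD for the 44 genes over all 4 arrays (left) and over replicates 1, 3 and 4 (right); filled points had a limma adjusted p under 0.05. Filled points number 4 on the left and 36 on the right. Replicate 2 was left out on the right because of its values in these same data.

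The mitotic cyclins, CDK1 and their regulators showed the widest swings between arrays, and none of their 12 probes passed the test. CCNB1, the main mitotic cyclin, had log2 ratios of -0.30, 0.57, -0.92 and -0.51 on replicates 1 to 4. CCNB2, the second B-type cyclin, gave -0.26, 0.45, -0.79 and -0.52. CDK1, the kinase that both bind, gave -0.42, 0.40, -0.92 and -0.78. In all 3 genes replicate 2 was the one positive array, and the SD over arrays (0.63, 0.53 and 0.59) exceeded the mean (-0.29, -0.28 and -0.43), with limma adjusted p of 0.360, 0.306 and 0.174. CDCA3, which helps to trigger mitotic entry, gave -0.39, 0.22, -1.02 and -0.60 and had one of the 3 lowest means of the 44 genes (-0.45 ± 0.52, SD, n = 4; adjusted p = 0.122). CCNA2, a cyclin of S phase and G2, reached the highest single ratio of any of the genes, 0.63 on replicate 2, and lay at -0.47 on replicate 4. CDC25C, the phosphatase that activates CDK1, ranged least, from -0.37 to 0.023. Its probe was dim, however, and above background in red on only 2 of the 4 arrays. Its mean was -0.21, but -0.62 with Agilent's processed signals, so that its small range may reflect the low signal.

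In the spindle checkpoint and the pathway of the anaphase-promoting complex, 1 of 17 probes was lower, beside 7.59% of all probes tested. It belonged to MAD2L1, which restrains the complex until the chromosomes are attached. Its brighter probe gave -0.45, -0.0009, -0.54 and -0.52, so that replicate 2 lay at 0 and the other three arrays close together. The mean was -0.38 ± 0.25 (SD, n = 4), a fold of 0.770 of red over green, with a limma adjusted p of 0.0400. The dimmer probe had a mean of -0.33 and an adjusted p of 0.0548.
BUB1, a checkpoint kinase, gave -0.32, 0.43, -0.91 and -0.76, with a mean of -0.39 ± 0.60 and an adjusted p of 0.212. UBE2C gave -0.22, 0.52, -0.66 and -0.39 on its brightest probe. PTTG1, the securin that holds separase inactive, gave -0.25, 0.14, -0.51 and -0.30. These 3 genes were again positive on replicate 2 alone. BUB3, which brings BUB1 to the kinetochores, moved less (0.013, 0.26, -0.12 and -0.033) and had one of the 3 highest means (0.030 ± 0.16; adjusted p = 0.767). BUB1B and TTK, both of the spindle checkpoint, had means of -0.37 and -0.30, with replicate 2 at 0.32 and 0.41.

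Of the kinases outside the chromosomal passenger complex, AURKA, which builds the spindle poles, gave -0.30, 0.30, -0.47 and -0.37. MELK, a kinase whose transcript peaks in mitosis, had a mean of -0.12 with 0.54 on replicate 2 and -0.60 on replicate 3. The passenger complex corrects wrong attachments and guides cytokinesis, and none of its 4 probes passed the test. Its kinase AURKB gave -0.19, 0.40, -0.36 and -0.33, and BIRC5 (survivin) gave -0.19, 0.49, -0.61 and -0.51. Both were highest on replicate 2 and lowest on replicate 3, as were CCNB1 and CCNB2. INCENP, the scaffold of the complex, had the highest mean of the 44 genes (0.040 ± 0.20; adjusted p = 0.734), from 0.014, 0.32, -0.13 and -0.051. CDCA8 (borealin) ranged from -0.18 to 0.19. Its probe was above background in red on only 1 of the 4 arrays. Its mean was -0.022, but -0.37 with Agilent's processed signals.

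Kinetochore genes were negative in the mean in 7 of 7 and positive on replicate 2 in 7 of 7, and none of their 9 probes passed the test. NDC80, the subunit that grips the microtubule, gave -0.27, 0.42, -0.53 and -0.42. CENPF, a large protein of the outer kinetochore, gave -0.25, 0.24, -0.33 and -0.30, so that 3 arrays lay close together and replicate 2 had the opposite sign. NUF2, the partner of NDC80, had the lowest mean of all 44 genes (-0.48 ± 0.42; adjusted p = 0.0635), with -0.46, 0.092, -0.88 and -0.68. SPC25, of the same complex, had a mean of -0.42 and SPC24 one of -0.072. CENPA, the histone H3 variant of centromeres, had a mean of -0.22. CENPE, a kinetochore motor, was the one gene of this group whose lowest array was replicate 4 (-0.90) and not replicate 3 (-0.40).

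Among the mitotic kinesins, 2 of 7 probes were lower, beside 7.59% of all probes tested. With so few probes, some of the same gene, the count is not a result about the group. KIF18A, which limits the growth of kinetochore microtubules, gave -0.25, -0.19, -0.48 and -0.48, one of 5 genes that never changed sign between arrays, and had a small SD (mean -0.35 ± 0.15; fold 0.785; limma adjusted p = 0.0217). The other called probe was the second brightest of 3 for KIF15, a kinesin that helps to keep the spindle bipolar. It gave -0.50, 0.0345, -0.71 and -0.62 (adjusted p = 0.0460), while the brightest probe gave -0.51, 0.11, -0.75 and -0.60 (adjusted p = 0.0632). KIF11, which pushes the spindle poles apart, gave -0.24, 0.35, -0.72 and -0.46. KIF20A, which works at cytokinesis, gave -0.12, 0.42, -0.41 and -0.58. Neither of these passed the test, nor did KIF2C, a microtubule depolymerase with a mean of -0.17.

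Of the 8 probes for chromosome structure, 1 was lower, beside 7.59% of all probes tested. SMC2, the core subunit shared by both condensins, gave -0.33, -0.11, -0.84 and -0.62 on its brighter probe, negative on all arrays (mean -0.48 ± 0.32; fold 0.719; limma adjusted p = 0.0373). Its other probe was at 0.023 on replicate 2 and had an adjusted p of 0.0527. SMC4, the partner of SMC2, gave -0.37, 0.076, -0.55 and -0.40. NCAPG, a condensin I subunit, gave -0.33, 0.28, -0.67 and -0.59. MKI67 (Ki-67), the common marker of cycling cells, gave -0.26, 0.42, -0.58 and -0.53. Replicate 2 was thus positive in 4 of these 5 genes, NCAPH, of condensin I, included (0.47). The adjusted p of SMC4 was 0.0698 and that of MKI67 was 0.314.

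Spindle-associated proteins were negative in the mean in 4 of 4, and none of their 6 probes passed the test. TPX2, which activates AURKA on the spindle, gave -0.22, 0.48, -0.58 and -0.37. HMMR, a spindle pole protein, gave -0.29, 0.26, -0.74 and -0.55. NUSAP1 and CKAP2, which bind spindle microtubules, had means of -0.33 and -0.35, with 0.063 and 0.28 on replicate 2.
In cytokinesis, 1 of 5 probes was lower, beside 7.59% of all probes tested. PRC1, which bundles the microtubules of the midzone, gave -0.38, -0.044, -0.63 and -0.54 (mean -0.40 ± 0.26; fold 0.759; limma adjusted p = 0.0368). ANLN (anillin), which organises the cleavage furrow, gave -0.26, -0.0088, -0.24 and -0.49. Both were thus negative on all arrays, but with replicate 2 near 0. RACGAP1, of the centralspindlin complex, had the third highest mean of the 44 (-0.012 ± 0.15; adjusted p = 0.905), from 0.056, 0.17, -0.14 and -0.13. The cytokinesis genes were the one group in which no gene was positive on replicate 2 and negative on the other three arrays.

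The direction of the mean did not depend on the probe. In the 18 genes with more than 1 tested probe (44 probes), no probe of a gene differed from the others in the sign of its mean. The SD between probes of a gene within an array had a median of 0.074, while the SD of a gene over the arrays had a median of 0.46 and was the larger in 18 of 18 genes. The 5 probes of UBE2C, printed above with their shared stretch, lay between 0.47 and 0.53 on replicate 2 and between -0.74 and -0.66 on replicate 3. CDCA3, also with 5 probes, lay between 0.18 and 0.32 and between -1.02 and -0.95. Probes that overlap are not independent measurements of the transcript. Within single arrays, the signs differed for ECT2, SMC2 and MAD2L1. The brighter probe of ECT2 gave 0.31 on replicate 3 and the dimmer one -0.27, with means of -0.13 and -0.20 over the arrays. For SMC2 (-0.11 and 0.023) and MAD2L1 (-0.0009 and 0.022) the difference was on replicate 2, where both probes lay near 0. The 2 probes of MKI67 agreed in sign on each array but differed most of all 18 genes in size, with means of -0.24 and -0.024. The dimmer one gave -0.0004, 0.19, -0.15 and -0.13, and without replicate 2 it did not pass the test (adjusted p = 0.244, against 0.0184 for the brighter one). The 2 probes of PTTG1 also agreed in sign and had means of -0.23 and -0.043, with adjusted p of 0.0226 and 0.158 without replicate 2.

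**Figure D3:**
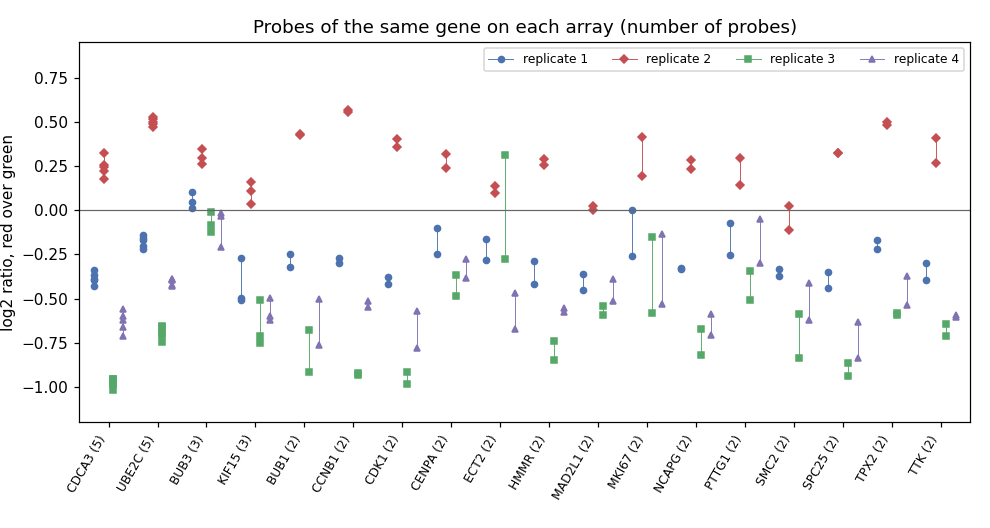
Log2 ratio of red over green for every tested probe of the 18 genes with more than 1 probe, by array; points of 1 gene on 1 array are joined, and the number of probes stands in parentheses. For 18 of 18 genes the SD between probes within an array is smaller than the SD over arrays; the widest gaps between probes are those of ECT2 on replicate 3 and of MKI67 on replicates 3 and 4.

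The channels were then examined separately, after scaling both channels between arrays, with each gene set against its own mean over the 4 arrays. In the red channel, the median of the 44 genes was -0.11, 0.40, -0.21 and -0.063 on replicates 1 to 4 (log2 signal). Replicate 2 was the highest red value in 42 of 44 genes (95.5%), against 23.4% of all genes. The green medians were -0.12, -0.16, 0.091 and 0.17. In 39 of 44 genes (88.6%) both of replicates 1 and 2 lay below both of replicates 3 and 4 in green, against 21.8% of all genes. The positive ratios of replicate 2 thus came with a high red and a low green signal, the negative ratios of replicate 3 with a low red signal, lowest of the arrays in 31 of 44 genes, and a smaller rise in green, and those of replicate 4 mainly with a high green signal.

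CCNB1 had red signals of 11.1, 11.8, 10.8 and 11.1 (log2) and green signals of 11.4, 11.2, 11.7 and 11.6. CDK1 had red signals of 10.9, 11.5, 10.7 and 10.9 and green signals of 11.3, 11.1, 11.6 and 11.7. Both were highest in red on replicate 2 and lowest in green on it. HMMR had the widest red range of the 44 genes, 1.21, from 7.90, 8.91, 7.70 and 7.74, and unlike the others it was also highest in green on replicate 2 (8.18, 8.65, 8.44 and 8.29). BUB3 had one of the narrowest green ranges, 0.081, and a red range of 0.36. Over the 44 genes, the median range over arrays was 0.62 in red and 0.41 in green, against 0.23 and 0.22 for all genes. Culture, labelling and hybridisation cannot be told apart in the signal of a channel.

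**Figure D4:**
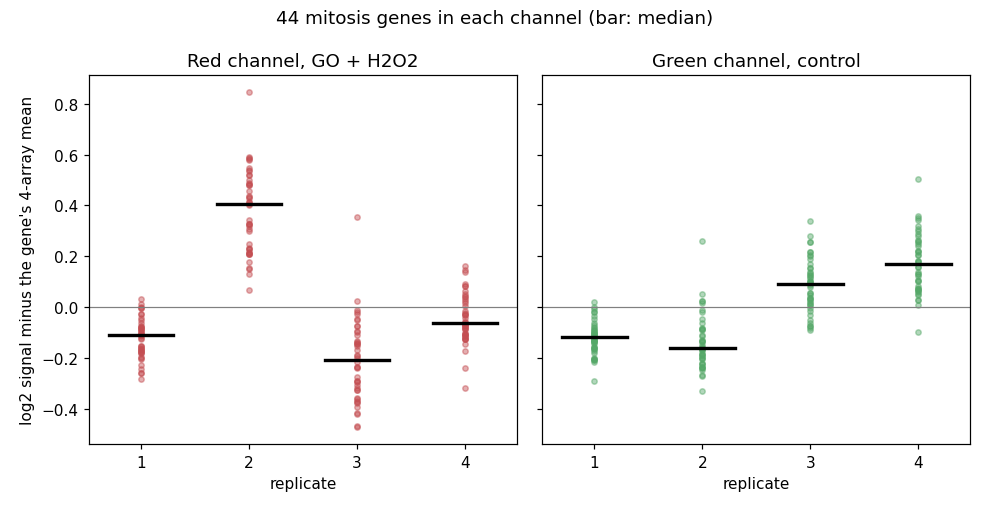
Log2 signal of the 44 genes in the red channel (GO and H2O2, left) and the green channel (control, right), each as the deviation from the gene's mean over the 4 arrays in that channel; points are genes and bars are medians. Red is high on replicate 2 (median 0.40), and green is low on replicates 1 and 2 and high on 3 and 4.

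Across the 44 genes, the ratios of replicates 1, 3 and 4 were correlated pair by pair (Pearson r of 0.635, 0.674 and 0.528 for 1 with 3, 1 with 4 and 3 with 4). Replicate 2 had an r of 0.263 with replicate 1, -0.218 with replicate 3 and 0.0751 with replicate 4. Over all 13692 genes the order was another one, since replicate 1 had an r of 0.547 with replicate 2, 0.436 with replicate 3 and 0.474 with replicate 4, while replicate 2 had 0.184 with replicate 3 and 0.252 with replicate 4, and replicates 3 and 4 had 0.694. These are correlations across genes of the same arrays, which are not independent replicates.

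Without replicate 2, the mean ratio was negative in all 44 genes, from -0.71 for CDK1 to -0.047 for BUB3. At least 1 probe was past the threshold in 37 genes, and in 36 the brightest was. Over all probes tested, 7.51% were lower and 8.58% higher in this fit, and the share by gene was not counted. Replicate 2 was left out because of its values in these same data, so that these counts give no independent evidence of a direction. The 7 genes with no probe past it were BUB3, CCNA2, CDCA8, CENPE, INCENP, RACGAP1 and SPC24. BUB3, CDCA8, INCENP and RACGAP1 had means between -0.093 and -0.047, and CCNA2 and CENPE had larger means (-0.32 and -0.48) with an SD of 0.25 and 0.39. Among the genes past the threshold, MAD2L1 had a mean of -0.50 ± 0.046 (SD, n = 3) and CENPF one of -0.29 ± 0.037. In both, replicate 2 lay far from the other arrays. Leaving it out was thus bound to give a small SD, which is no support for a direction.

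Other lists of cell cycle genes were set beside these. Of 66 other mitosis genes tested, the median was -0.11, and -0.12, 0.15, -0.23 and -0.23 on replicates 1 to 4. Of their 110 probes, 17 were lower and 1 was higher, beside 7.59% lower and 9.49% higher over all probes tested. These shares hold as the background for the counts below as well. Several of the 17 were probes of the same gene, as for CENPH, NSL1 and RAD21, so that fewer genes than probes were called. CENPK and CENPH, of the inner kinetochore, and RAD21, the cohesin subunit that separase cleaves, had the smallest p (means of -0.30, -0.44 and -0.34 and adjusted p of 0.0161, 0.0242 and 0.0177 on the probe of each gene with the smallest p). CDC25B, a phosphatase that activates CDK1, was the one that was higher (0.19, adjusted p = 0.0457). The S phase list had 41 genes with a median of -0.14, and -0.20, 0.18, -0.37 and -0.25 by array, and 4 of 75 probes were lower and 0 higher. The probes with the smallest p were dimmer ones of RPA1, RFC1 and GMNN, which act in DNA replication and its licensing, with means of -0.26, -0.21 and -0.28. The brightest probes of these 3 genes had means of -0.21, -0.16 and -0.12 and did not pass the test (adjusted p of 0.0546, 0.0653 and 0.263). The medians of both lists thus had the sign pattern of the mitosis genes with smaller values. The lower probes with the smallest p named here did not show it, since they were negative on all 4 arrays, replicate 2 included. Without replicate 2, 43 probes of the other mitosis genes and 47 of the S phase genes were lower and 0 were higher in both, beside 7.51% lower and 8.58% higher over all probes.

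The transcription regulators of mitotic genes (15 genes) had a median of 0.035, and 0.0058, 0.12, 0.014 and 0.055 by array, of which replicate 1 turned negative with median centring in place of loess (-0.17) and with a normexp offset of 0 (-0.0046), and replicate 3 with median centring (-0.015). Of their 32 probes, 0 were lower and 5 were higher, beside 9.49% higher over all probes. The 5 were 1 of LIN37 (0.27, adjusted p = 0.0158) and 4 of NFYC (0.15 on the brightest, adjusted p = 0.0371). Both genes encode subunits of complexes that bind promoters of cell cycle genes. The other probes of NFYC had means from -0.0099 to 0.14 and did not pass the test, so that the count rests largely on 1 gene with many probes. Without replicate 2, 5 of the 32 were lower and 2 higher, beside 7.51% lower and 8.58% higher over all probes. The lower ones included dimmer probes of E2F8, whose brightest probe did not pass the test (limma adjusted p = 0.105). The 11 genes of cell cycle exit had a median of -0.0082, which lay between -0.012 and 0.024 under the other scalings and so had no settled sign, with 1 of 21 probes lower and 2 higher. The brightest of 5 probes of CDKN1B (p27), an inhibitor of cyclin-dependent kinases, was higher (0.17, adjusted p = 0.0387), while its other 4 probes had means of 0.045 to 0.097 and did not pass the test. The dimmer of 2 probes of CCNG2 was higher (0.27, adjusted p = 0.0468; the brighter one 0.11, adjusted p = 0.165). The brighter of 2 probes of CCNG1 was lower (-0.40, adjusted p = 0.0287; the dimmer one -0.28, adjusted p = 0.0552). CCNG1 and CCNG2 are cyclins that respond to stress and arrest. Without replicate 2, 3 of the 21 were lower and 0 higher, beside the same shares over all probes, and both probes of CDKN2C were among the 3.

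**Figure D5:**
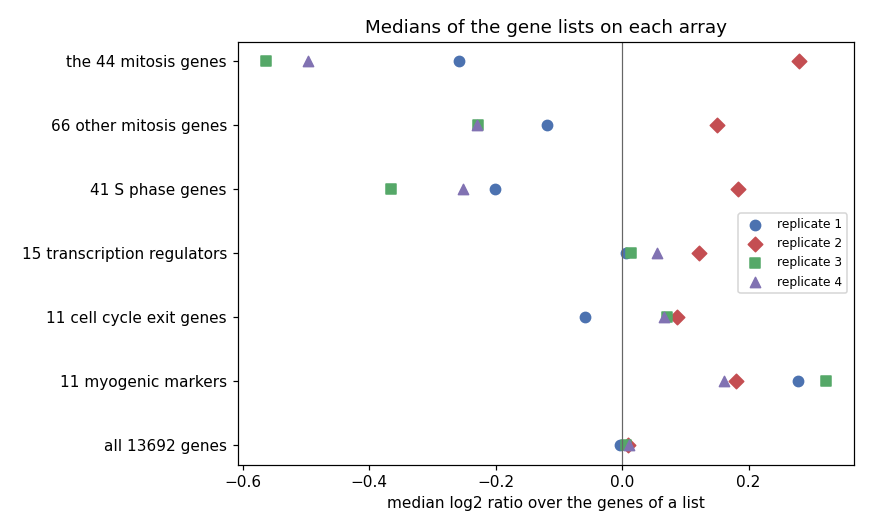
Median log2 ratio of red over green on each array for the 44 mitosis genes, the other lists and all genes tested. The mitosis, other mitosis and S phase lists are positive on replicate 2 and negative on the other arrays, the myogenic markers are positive on all 4, and all genes lie near 0.

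Markers of the cells bear on these values, because in bulk RNA fewer dividing cells and less transcript per dividing cell cannot be told apart. All 11 tested of 15 myogenic markers had a positive mean, with a median of 0.23, and 9 of their 19 probes were higher, beside 9.49% over all probes. Their medians by array were 0.28, 0.18, 0.32 and 0.16, so that replicate 2 was positive here as well and did not stand apart. TNNT3 and MYL1, proteins of the contractile apparatus, had means of 0.44 and 0.40. On the brightest probes, MYOG was higher (0.33, limma adjusted p = 0.0212). MYOD1, MYF5 and DES had means of 0.15, 0.089 and 0.022 and did not pass the test (adjusted p of 0.234, 0.224 and 0.809). The dimmer probe of MYOD1 had a mean of -0.032. PAX7, CDH15, MYMK and its older symbol TMEM8C had no probe under these names. Of the 5 tested of 8 fibroblast markers, LUM was lower (-0.43) and THY1 higher (0.28), with a median of -0.011 (medians by array 0.038, -0.030, -0.039 and -0.041). No endothelial (of 5 with a probe) and no adipocyte marker (of 3) lay above background in the way required. CD14 and CD68, of macrophages, had means of -0.17 and 0.0049, and PDGFRB and CSPG4, of pericytes, 0.042 and 0.056. Of these, CD14 was lower (limma adjusted p = 0.0385), and CD68, PDGFRB and CSPG4 did not pass the test. The part of any of these cells in the ratios of the mitosis genes was not tested.

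Signal strength and probe composition were compared last. Of the 70 tested probes, 68 lay above background on all 4 arrays in both channels and 0 spots were saturated. Their median GC content was 41.7%, as in all tested probes, and their median signal was 9.20 (log2), against 8.97. Over the arrays, 54.9 to 61.3% of gene spots in green and 56.7 to 61.4% in red were well above background, and 7 to 16 gene spots per array carried an outlier mark. With 4 arrays, the precision of each mean is limited by their number.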

How the data were processed

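RNA of GO- and H2O2-treated ESC (red) and of control ESC (green) was measured on 4 two-colour arrays. The deposited scanner files hold spot intensities, which per their headers the authors obtained from Agilent Feature Extraction 10.10.1.1, and the deposited series matrix holds the same log10 ratios, red over green. Mean intensities were corrected with normexp (offset 50) and normalised within arrays by loess (limma 3.58.1, R 4.3.3), in which control spots had weight 0. Control and outlier spots were left out and spots of a probe averaged. Probes well above background on all 4 arrays in red or in green were tested with lmFit and eBayes against 0, two-sided, with Benjamini-Hochberg adjustment over 24230 probes. The methods of the study state Student's test with a fold limit of 1.3, while its list of genes used a lower one; the test was run here as an alternative with and without it (the methods' t-test).

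Medians use the brightest probe per gene, and calls are counted over probes. Channel values were scaled between arrays (Aquantile). Members, lists and the genes to be described were chosen with earlier results of these data known. Array values are given for genes fixed by role, for all past the threshold and for the 3 highest and 3 lowest means; from the other lists, up to 3 genes per direction with the smallest p. The fit was tested on simulated data. Promoter motifs, planned for these genes, were not analysed here.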

Additional observations from a re-analysis of the deposited data

Results flagged for a closer look

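Of 148 sets of 4 array values examined, 9 had 1 array far from the others. The limit was Dixon's 95% critical value for the gap over the whole range, where chance gives about 1 in 20. The 9 are near that share, and the sets are not independent, since a gene's ratio and its 2 channel signals are related. Replicate 2 was the distant one in 5 of them: the ratio of CENPF (0.2388, against -0.33 to -0.25), the ratio of MAD2L1 (-9e-04, against -0.54 to -0.45), and the red signal (log2) of CENPE (7.3915, against 6.90 to 6.97), KIF20A (8.782, against 8.22 to 8.27) and HMMR (8.9086, against 7.70 to 7.90). Replicate 4 was the distant one in the green signal of ECT2 (8.6367, against 8.20 to 8.25) and CCNA2 (9.9635, against 9.48 to 9.52). Replicate 1 was the distant one in the median ratio of the cell cycle exit genes (-0.0586, against 0.067 to 0.087) and of the fibroblast markers (0.0379, against -0.041 to -0.030).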

How the results depend on the processing

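The number of mitosis probes past the threshold (5) depended on the fit and was never made up of higher probes. It was 2 when the processed signals were used and 2 with the series matrix values. Array weights gave 12, and a trended and robust prior gave 3. With median centring in place of loess it was 0. There, 9 were lower and 0 higher at an unadjusted p under 0.05, at which all probes were not counted. It was also 0 with the methods' t-test, both adjusted and unadjusted with the fold limit of 1.3. Leaving out 1 replicate at a time gave 0 to 58, with 58 only without replicate 2. Without the replicate block (red against green as unpaired groups) it was 2 for the mitosis probes, 2 for the other mitosis genes (18 with the block) and 0 for the S phase, regulator and cell cycle exit lists (4, 5 and 3 with it). With median centring and with the methods' t-test all of these 4 lists had 0, and over the whole array the probes called fell from 4137 to 12 and 5. With array weights, S phase rose to 8 and cell cycle exit to 5, and with the processed signals, the series matrix values or no background correction the regulators rose to 8. Leaving out 1 replicate at a time gave 0 to 43 for the other mitosis genes, 0 to 47 for S phase, 0 to 7 for the regulators and 0 to 3 for cell cycle exit. The other settings kept all these counts within 1.5 times. All settings for the 4 lists were added after seeing the data.

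The median ratio of the 44 genes lay between -0.43 (without replicate 2) and -0.13 (without replicate 3), and was positive on replicate 2 and negative on the other arrays under each setting tried. Median centring moved the median of all probes by up to -0.27 (replicate 1); relative to it, the 44 genes lay at -0.30, 0.29, -0.59 and -0.47. In each channel, the medians kept their sign with median-centred processed signals. The mean changed sign for 8 genes. With processed signals or the series matrix RACGAP1 was at 0.0441, and with no background correction RACGAP1 was at 0.0182 and CDCA8 at 0.0217. Leaving out 1 replicate at a time, RACGAP1 ranged from -0.0729 to 0.0306, CDCA8 from -0.0928 to 0.0314, CCNA2 from -0.3176 to 0.0471, MELK from -0.3446 to 0.0375, SPC24 from -0.1888 to 0.025, ECT2 from -0.2727 to 0.055, BUB3 from -0.0467 to 0.0805 and INCENP from -0.0545 to 0.0947. The causes were not tested.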
